A study of Mus musculus with 36 samples.

Results

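The 41 genes described here cover the oxidation of fatty acids in mouse liver and the targets of PPARA, the nuclear receptor that governs it. They were taken by name: the receptor Ppara and its partner Creb3l3, 5 genes of fatty acid activation and the carnitine shuttle, 11 of mitochondrial beta-oxidation, 9 of peroxisomal oxidation, 5 acyl-CoA thioesterases, the ketone body enzyme Bdh1, and 8 further PPARA targets. All 41 are among the 53715 gene identifiers of the deposited count table, and 40 had enough counts to be among the 14068 genes tested. Acaa1a, a peroxisomal thiolase gene, was listed at 0 in every library. Acadsb, Lpin2 and Txnip, which are not members, were also at 0 in every library. A listed 0 is therefore not read here as absence of the transcript, and its cause was not tested.

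RNA was sequenced from the livers of male C57BL/6 mice aged 10 weeks. The mice ate 1 of 3 diets from 4 weeks of age: the purified AIN93G diet (control), or that base with 10% by weight of powder from red tomato or from tangerine tomato. Each diet had 12 libraries, each from a mouse with its own number, and the libraries held between 21290169 and 33810573 counts. In whole liver, fewer cells of a type and less RNA per cell cannot be told apart.

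PPARA binds DNA together with RXR when fatty acids or their derivatives occupy it, and it raises transcription of genes that import, activate and oxidize fatty acids. Long-chain fatty acids are joined to coenzyme A, carried into mitochondria as carnitine esters and shortened by repeated cycles of beta-oxidation, while very long and branched chains are first shortened in peroxisomes. In liver these genes are known for their rise in fasting, and several of them also follow the time of day.

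PPARA with RXR is known to bind a direct repeat of a hexamer spaced by 1 base, written here as AGGTCANAGGTCA. It was searched on both strands, with up to 2 mismatches, in RefSeq promoter windows of 300 bases (build GRCm38.p6, 250 bases before and 50 after a gene's start). Of the members, 36 matched to a window, with 41 windows between them. The repeat occurred in 5 of these 41 windows (12.2%) and in 3.86% of all 32851 windows. With at most 1 mismatch it occurred in Fabp1 among the members and in 0.554% of all windows. In Fabp1, the liver fatty acid binding protein, it lay on the opposite strand at bases -67 to -55 before the RefSeq start.
Fabp1 site: TGACCTATGGCCT
Upstream sequences are shown for Pdk4, Fgf21 and Plin2, the members with the smallest p-values between the tomato diets. They run 5′ to 3′ on the gene's strand and stop before the gene as GENCODE annotates it. Capitals mark the repeat with up to 2 mismatches and the E-box CACGTG, which clock factors are known to bind. They come from chr6:5496310-5496528 (219 bases, minus strand), chr7:45615491-45615740 (250 bases, minus strand) and chr4:86670061-86670309 (249 bases, minus strand).
Pdk4 upstream region: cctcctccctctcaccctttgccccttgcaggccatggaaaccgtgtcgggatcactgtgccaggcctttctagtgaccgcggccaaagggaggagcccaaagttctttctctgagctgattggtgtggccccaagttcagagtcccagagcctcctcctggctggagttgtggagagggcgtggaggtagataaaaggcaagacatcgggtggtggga
Fgf21 upstream region: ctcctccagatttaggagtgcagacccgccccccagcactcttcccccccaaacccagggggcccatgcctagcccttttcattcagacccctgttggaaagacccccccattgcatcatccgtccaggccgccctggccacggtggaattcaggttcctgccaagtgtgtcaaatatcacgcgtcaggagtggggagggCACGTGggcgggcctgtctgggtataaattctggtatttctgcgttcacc
Plin2 upstream region: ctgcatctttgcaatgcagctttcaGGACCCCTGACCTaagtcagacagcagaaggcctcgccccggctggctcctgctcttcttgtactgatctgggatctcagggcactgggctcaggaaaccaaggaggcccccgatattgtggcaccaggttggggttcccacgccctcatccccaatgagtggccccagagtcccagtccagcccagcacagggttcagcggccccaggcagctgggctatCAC
Pdk4 held neither motif in its window. Fgf21 held CACGTG, and Plin2 held the repeat on the opposite strand at bases -225 to -213 and a CACGTG that runs from the last shown bases into the gene. CACGTG occurred in 4 of the 41 member windows (9.76%) and in 7.15% of all windows. The D-box TTANGTAA occurred in 0 of the 41 and in 2.32% of all. A match of letters is a description and not a measured binding site.

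Members differed widely in level. Per kilobase of exon, CPM (counts relative to the library size as edgeR scales it) ran in the control livers from 7953 ± 1337 for Fabp1 (SD, n = 12) and 539 ± 40.2 for Acaa2, the mitochondrial thiolase, down to 0.278 ± 0.124 for Acot4, a peroxisomal thioesterase. The carnitine shuttle enzymes Cpt1a and Cpt2 stood at 47.0 ± 6.91 and 47.1 ± 4.72 per kilobase, which by this measure do not differ beyond their spread. The measure divides by all annotated exon bases, 7642 for Cpt1a and 2391 for Cpt2. Their longest coding transcripts have 4317 and 2372 bases, so equal transcript levels cannot be read from these values. Ppara itself was at 34.6 ± 10.6. Pdk4, a kinase that shuts pyruvate out of oxidation, was at 2.83 ± 1.85 in control livers. The spread between mice differed by role. The median coefficient of variation of the mitochondrial beta-oxidation genes was 10.9%, 11.3% and 12.7% in control, red and tangerine livers. For the thioesterases it was 44.8%, 60.2% and 51.9%. Single thioesterases ran from 9.52% to 58.1% in control livers. Acot2, Acot3 and Acot4 had median counts of 51, 46 and 53, so role and level are not told apart here.

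**Figure D1:**
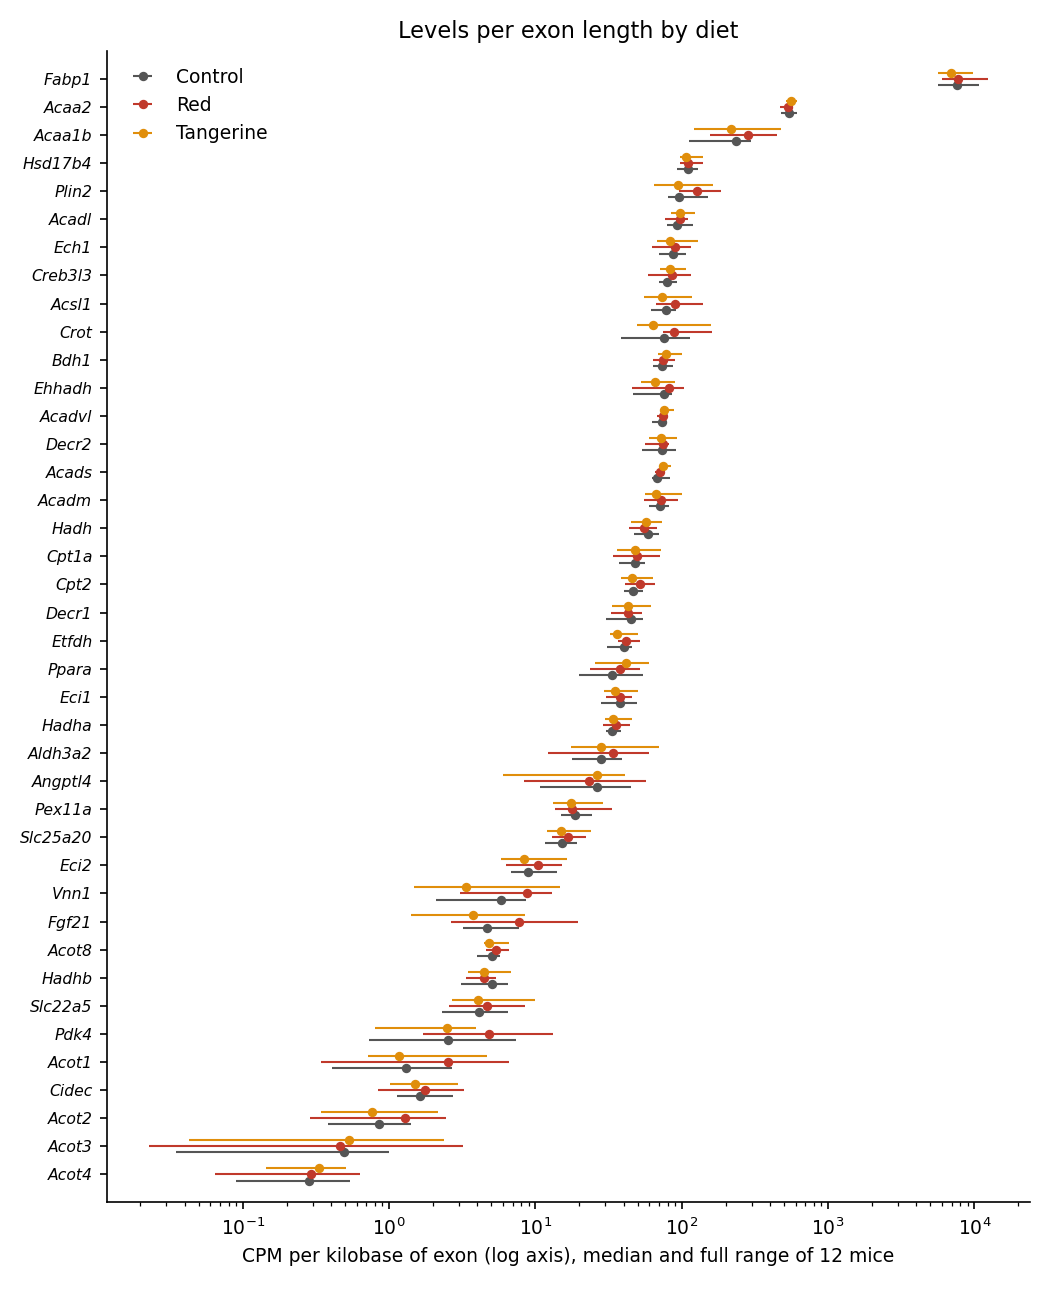
CPM per kilobase of exon on a log axis for the 40 tested genes, with the median (point) and the full range (line) of 12 mice in each diet. Fabp1 lies far to the right, and most mitochondrial genes have short lines.

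Pdk4, Fgf21, Plin2, Acsl1, Vnn1 and Crot had their highest median in the livers of mice fed red tomato, without passing the adjusted test. Among the genes tested, 0 of the 40 members passed an adjusted p of 0.05 in any comparison. The share of all genes that did was 0.149% for red against control, 0.0142% for tangerine against control, 1.71% between the tomato diets and 0.00711% for both tomato diets against control, by edgeR's quasi-likelihood test with Benjamini-Hochberg adjustment. At an unadjusted p under 0.05 the members numbered 7, 2, 11 and 0 in the same order, against 13.3%, 5.47%, 15.1% and 6.77% of all genes. DESeq2's Wald test gave 2 members past the adjusted threshold in tangerine against red and 0 in the others. Limma-voom with sample weights gave 3 and 0. Of all 14068 genes these methods called 391 and 746 in tangerine against red. In red against control, where they called 0 members, they called 164 and 1504 of all genes. For both tomato diets against control they called 12 and 34, and DESeq2 called 6 in tangerine against control. The red and tangerine comparisons with control share the control livers, and the red livers enter both red comparisons.

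The members with the smallest p-values between the tomato diets had their highest median in red livers. Of the 8 further PPARA targets, 8 had a negative log2 fold change in tangerine against red (51.5% of all genes were below 0), with a median of -0.31, against -0.00455 for all genes. It was 7 of 8 without red 175, red 177 or tangerine 160 (Angptl4 above 0), with the clock score described below as covariate (Pdk4 above 0) and by limma-voom (Aldh3a2 above 0). Other PPARA targets and partners, part of the wider pathway described below, were less one-sided. Of 42 tested, 25 were below 0 and 17 above, with a median of -0.0588. At an unadjusted p under 0.05, 8 of the 42 were lower and 4 higher. The 11 mitochondrial genes had a median of 0.03. Over all 40 members, 27 were below 0, with a median of -0.07, and 10 of them had an unadjusted p under 0.05 on the lower side (8.52% of all genes) and 1 on the higher side (6.6%). In red against control, 32 of 40 were above 0 (48.5% of all genes), with a median of 0.11, and the 7 members with an unadjusted p under 0.05 were all higher in red (6.67% of all genes, with 6.63% lower). Against control, tangerine livers had 20 of 40 members above 0 (44.6% of all genes), and the 2 members under the unadjusted threshold were both higher (2.32% of all genes). For both tomato diets together 32 of 40 were above 0 (45.5% of all genes), with a median of 0.07. These shifts against control were not seen by limma-voom with sample weights, which put 21 of 40 members above 0 in red against control with a median of 0.00440 (52.7% of all genes), and 20 of 40 for both tomato diets with a median of -0.00822 (50.4% of all genes). Against control, tangerine livers had 11 of 40 above 0 by that method (46.5% of all genes). The median was -0.08 over the members and -0.00904 over all genes.

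**Figure D2:**
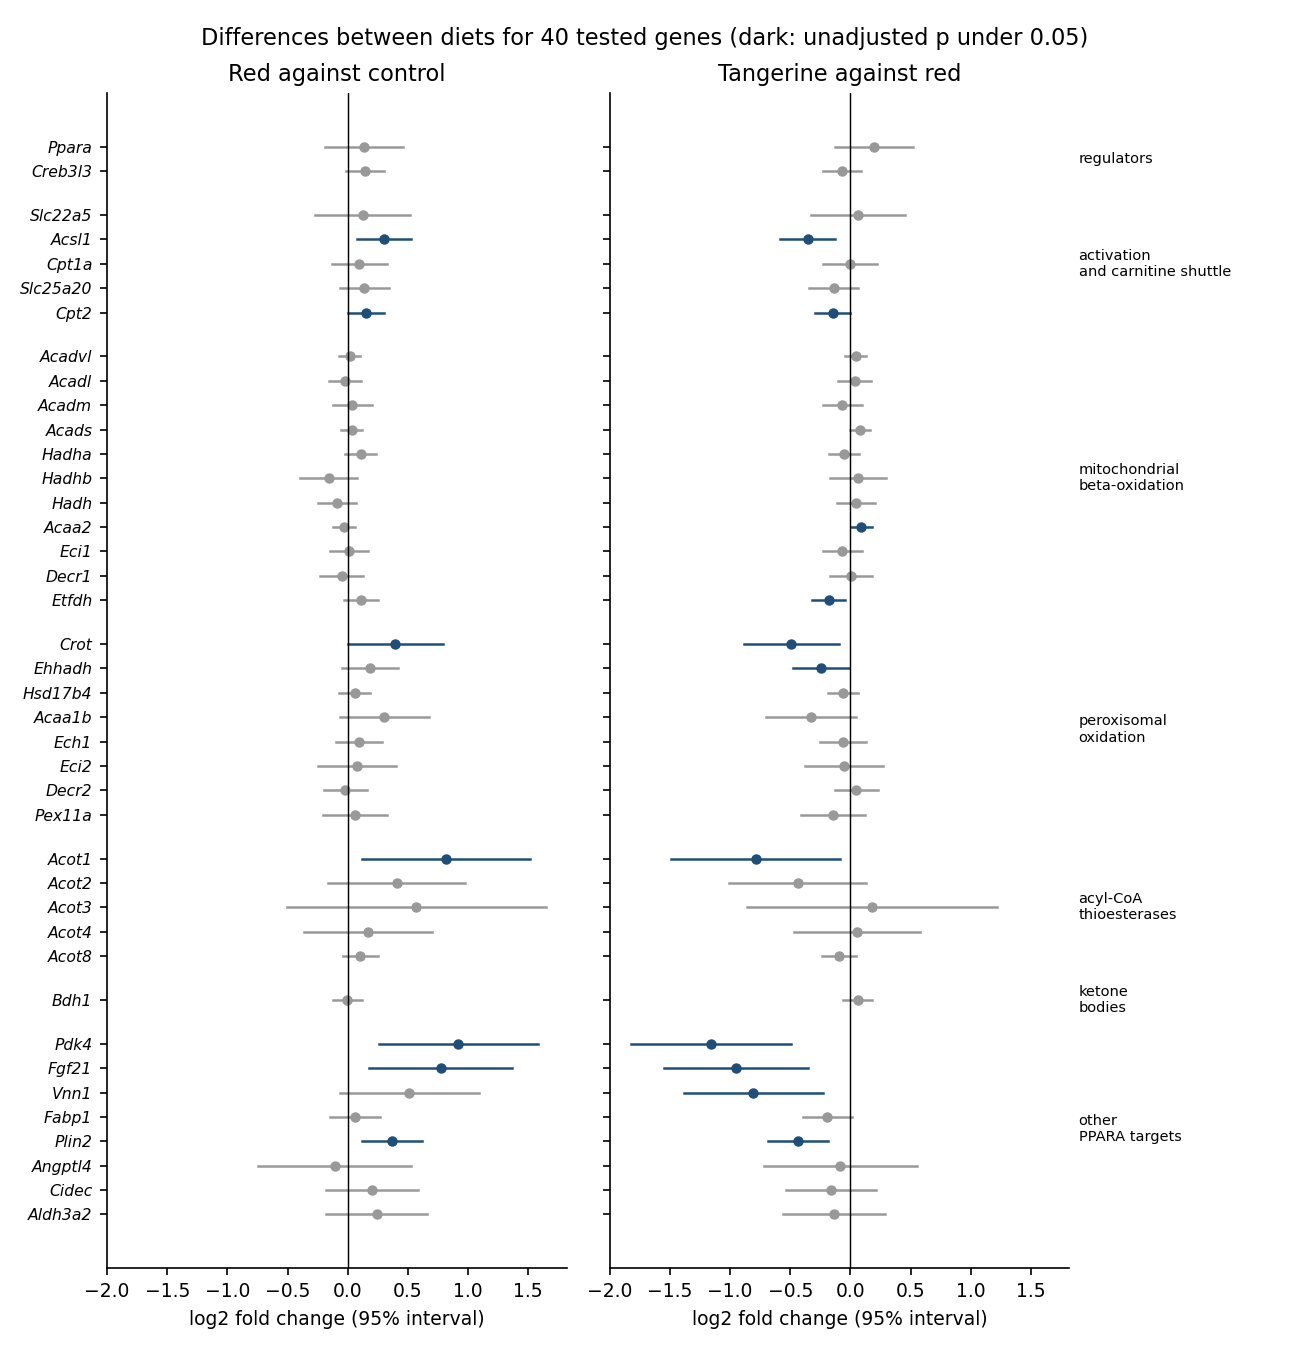
Log2 fold change with its 95% interval for each tested gene, grouped by role (left, red minus control, and right, tangerine minus red). Dark points have an unadjusted p under 0.05, and no gene passed the adjusted threshold.

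Pdk4 ranged from 2.57 to 25.8 CPM in control livers (median 8.85), from 6.02 to 46.6 in red (median 16.9) and from 2.82 to 13.8 in tangerine (median 8.69). Red livers were the high ones: 10 of 12 exceeded the control median, and 0 of 12 tangerine livers exceeded the red median, although the ranges overlapped. Tangerine against red was -1.16 on the log2 scale (SE 0.328, adjusted p = 0.0590 by edgeR), and red against control was 0.92 (SE 0.325, adjusted p = 0.196). Tangerine against control was -0.24 (SE 0.330), and -0.02 without control mouse 189. The red mouse with the highest Pdk4, number 186, is the library described below that stands apart, and without it and tangerine mouse 216 the difference between the tomato diets was -0.88 (adjusted p = 0.208 by edgeR).

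Fgf21, the hormone that liver releases in fasting, ranged from 3.04 to 7.35 CPM in control (median 4.42), from 2.51 to 18.7 in red (median 7.30) and from 1.34 to 8.05 in tangerine livers (median 3.55). Of the red livers, 6 exceeded every control liver, and 4 tangerine livers fell below every red one, while the rest overlapped. Between the tomato diets the difference was -0.95 (SE 0.296, adjusted p = 0.0905) and red against control 0.77 (SE 0.294, adjusted p = 0.238), both by edgeR.

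Plin2 coats lipid droplets. Its level ran from 284 to 528 CPM in control (median 335), from 334 to 652 in red (median 444) and from 226 to 579 in tangerine livers (median 334). Of the red livers 11 exceeded the control median, and 6 tangerine livers lay below every red liver. Tangerine against red was -0.43 (SE 0.123, adjusted p = 0.0576 by edgeR) and red against control 0.37 (SE 0.123, adjusted p = 0.163).

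Vnn1, a pantetheinase, had medians of 14.0 CPM in control (5.04 to 20.8), 21.3 in red (7.43 to 31.3) and 8.10 in tangerine livers (3.57 to 35.8). The highest value of all was that of tangerine mouse 226, and only 1 tangerine liver exceeded the red median. The tangerine minus red difference was -0.81 (SE 0.286, adjusted p = 0.148 by edgeR). Fabp1 was -0.19 in that comparison (SE 0.102) with a 95% interval of -0.40 to 0.02, and -0.13 without red 177. Angptl4, an inhibitor of lipoprotein lipase, was -0.08 (SE 0.314). Cidec, a lipid droplet protein, ran from 2.11 to 5.07 CPM in control and from 1.55 to 6.00 in red livers, and its median of 2.80 in tangerine livers lay within both ranges. Aldh3a2, a fatty aldehyde dehydrogenase, had medians of 158, 190 and 158 CPM.

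**Figure D3:**
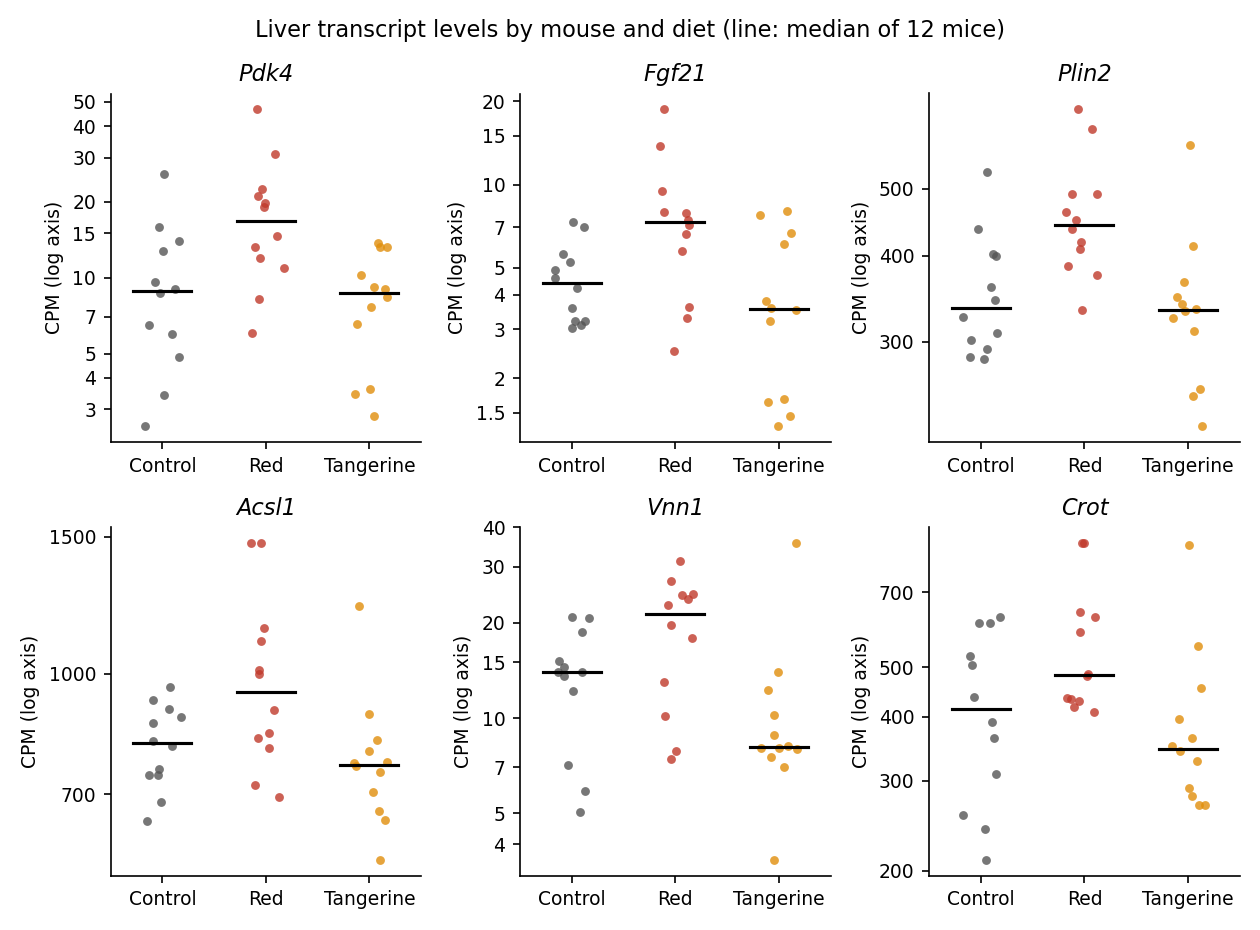
CPM on a log axis for each of 12 mice per diet, with the median as a line, for Pdk4, Fgf21, Plin2, Acsl1, Vnn1 and Crot. The red median is the highest in each gene, and the ranges of the diets overlap.

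In the activation and shuttle group, Acsl1, which joins long-chain fatty acids to coenzyme A, ranged from 647 to 962 CPM in control (median 814), from 694 to 1473 in red (median 948) and from 576 to 1223 in tangerine livers (median 764). Of the red livers 6 exceeded every control liver, and 1 tangerine liver exceeded the red median. Its level in tangerine livers differed from red by -0.35 (SE 0.112, adjusted p = 0.0944 by edgeR) and red against control 0.30 (SE 0.112, adjusted p = 0.226). Cpt2, the inner membrane carnitine palmitoyltransferase, was 0.15 higher in red than control and -0.15 in tangerine against red (SE 0.0726 each, adjusted p = 0.360 and 0.326 by edgeR). Cpt1a, the rate-limiting step of entry, had medians of 367, 379 and 366 CPM and a difference between the tomato diets of -0.00212 with a 95% interval of -0.23 to 0.22. The carnitine carriers Slc25a20 and Slc22a5 had medians of 73.8, 80.6 and 72.6 CPM and of 12.6, 14.3 and 12.4 CPM in control, red and tangerine livers. For Slc22a5, 27.1% of its 50-base transcript stretches also occur in other genes, mostly Slc22a21.

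Ppara had medians of 127, 146 and 161 CPM in control, red and tangerine livers, with ranges of 76.4 to 209, 91.1 to 200 and 97.6 to 230. Tangerine livers had the highest median, and the ranges overlapped. Tangerine against control was 0.33 (SE 0.160, adjusted p = 0.890 by edgeR), red against control 0.14 (SE 0.160) and tangerine against red 0.19 (SE 0.160). The medians of Ppara were in another order than those of its targets Pdk4, Fgf21 and Plin2, which were highest in red livers. Creb3l3, a liver transcription factor that acts with PPARA on Fgf21, had medians of 239, 259 and 250 CPM.

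The mitochondrial beta-oxidation genes differed little between the diets. Etfdh, which passes electrons from the dehydrogenases to the respiratory chain, had medians of 301, 313 and 272 CPM in control, red and tangerine livers, and 7 tangerine livers lay below every red liver. Its difference between the tomato diets was -0.18 (SE 0.0691, adjusted p = 0.187 by edgeR). Acaa2 went the other way, with medians of 816, 802 and 839 CPM and 0.09 in tangerine against red (SE 0.0435, adjusted p = 0.312 by edgeR). Acads, the short-chain acyl-CoA dehydrogenase, was 0.11 in tangerine against control (SE 0.0421, adjusted p = 0.697 by edgeR). For the dehydrogenases of longer chains (Acadvl, Acadl, Acadm) and for Hadha, Hadh, Eci1 and Decr1, the 95% intervals of all 3 pairwise differences included 0. Acadvl shares 42.9% of its exon bases with Dvl2 on the other strand, which had a median of 104 counts. Hadhb, the other subunit of the trifunctional protein, had a median of 33.3 CPM in control livers against 290 for Hadha, and 62.4% of its 50-base transcript stretches also occur in other genes, mostly the pseudogene Gm13910. How the authors counted shared reads is not given in the sources used here, so the level of Hadhb is uncertain.

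In peroxisomes, Crot, which makes medium-chain carnitine esters for export to mitochondria, ranged from 210 to 625 CPM in control (median 414), from 409 to 875 in red (median 482) and from 268 to 868 in tangerine livers (median 346). Of the tangerine livers, 9 lay below every red liver, and the control range overlapped both. Tangerine against red was -0.49 (SE 0.195, adjusted p = 0.208 by edgeR) and red against control 0.40 (SE 0.195). With the clock score described below as covariate these were -0.24 and 0.20. Ehhadh, the bifunctional enzyme, had medians of 227, 245 and 197 CPM and was -0.24 in tangerine against red (SE 0.115, adjusted p = 0.307 by edgeR). The peroxisomal thiolase Acaa1b had medians of 457, 553 and 424 CPM. Acaa1a, its close paralog on chr9:119339676-119350299 in GENCODE M21, was at 0, as were its neighbours Oxsr1 and Myd88, while Xylb within 100000 bases had a median of 3688 counts. 35.5% of the 50-base stretches of Acaa1b occur in Acaa1a too, and no value for Acaa1a is reported. Hsd17b4, Ech1, Eci2, Decr2 and the proliferation factor Pex11a had 95% intervals that included 0 in all 3 pairwise differences.

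The thioesterases release free fatty acids from coenzyme A. Acot1 ranged from 1.60 to 10.6 CPM in control (median 5.15), from 1.34 to 25.8 in red (median 9.88) and from 2.83 to 18.3 in tangerine livers (median 4.55). Red livers covered the whole span, holding both the lowest value and the highest. Red against control was 0.82 (SE 0.345, adjusted p = 0.299) and tangerine against red -0.79 (SE 0.345, adjusted p = 0.264), both by edgeR. Limma-voom with sample weights gave 0.29 for red against control. Of the 50-base stretches of Acot1, 33.6% also occur in other genes, mostly Acot2. Acot2, whose 50-base stretches are 27.7% shared and mostly with Acot1, had medians of 1.89, 2.81 and 1.69 CPM. Acot3 had medians of 1.68, 1.58 and 1.83 CPM with single mice up to 11.0, and Acot4 and the peroxisomal Acot8 had medians of 1.89, 1.96 and 2.21 and of 10.1, 10.8 and 9.67 CPM. The ketone body enzyme Bdh1 was at 285, 289 and 303 CPM.

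Within a diet, members tended to be high or low together in the same mouse. Tangerine mouse 226 had the highest level of its diet in 31 of the 40 members and lay above its diet's median in all 40. Red mice 177 and 175 were highest in 19 and 17 members, and red mouse 156 was lowest in 26. Control mouse 245 was lowest in 20. Mouse 226 thus set the upper end of the tangerine range in most of the genes above.

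**Figure D4:**
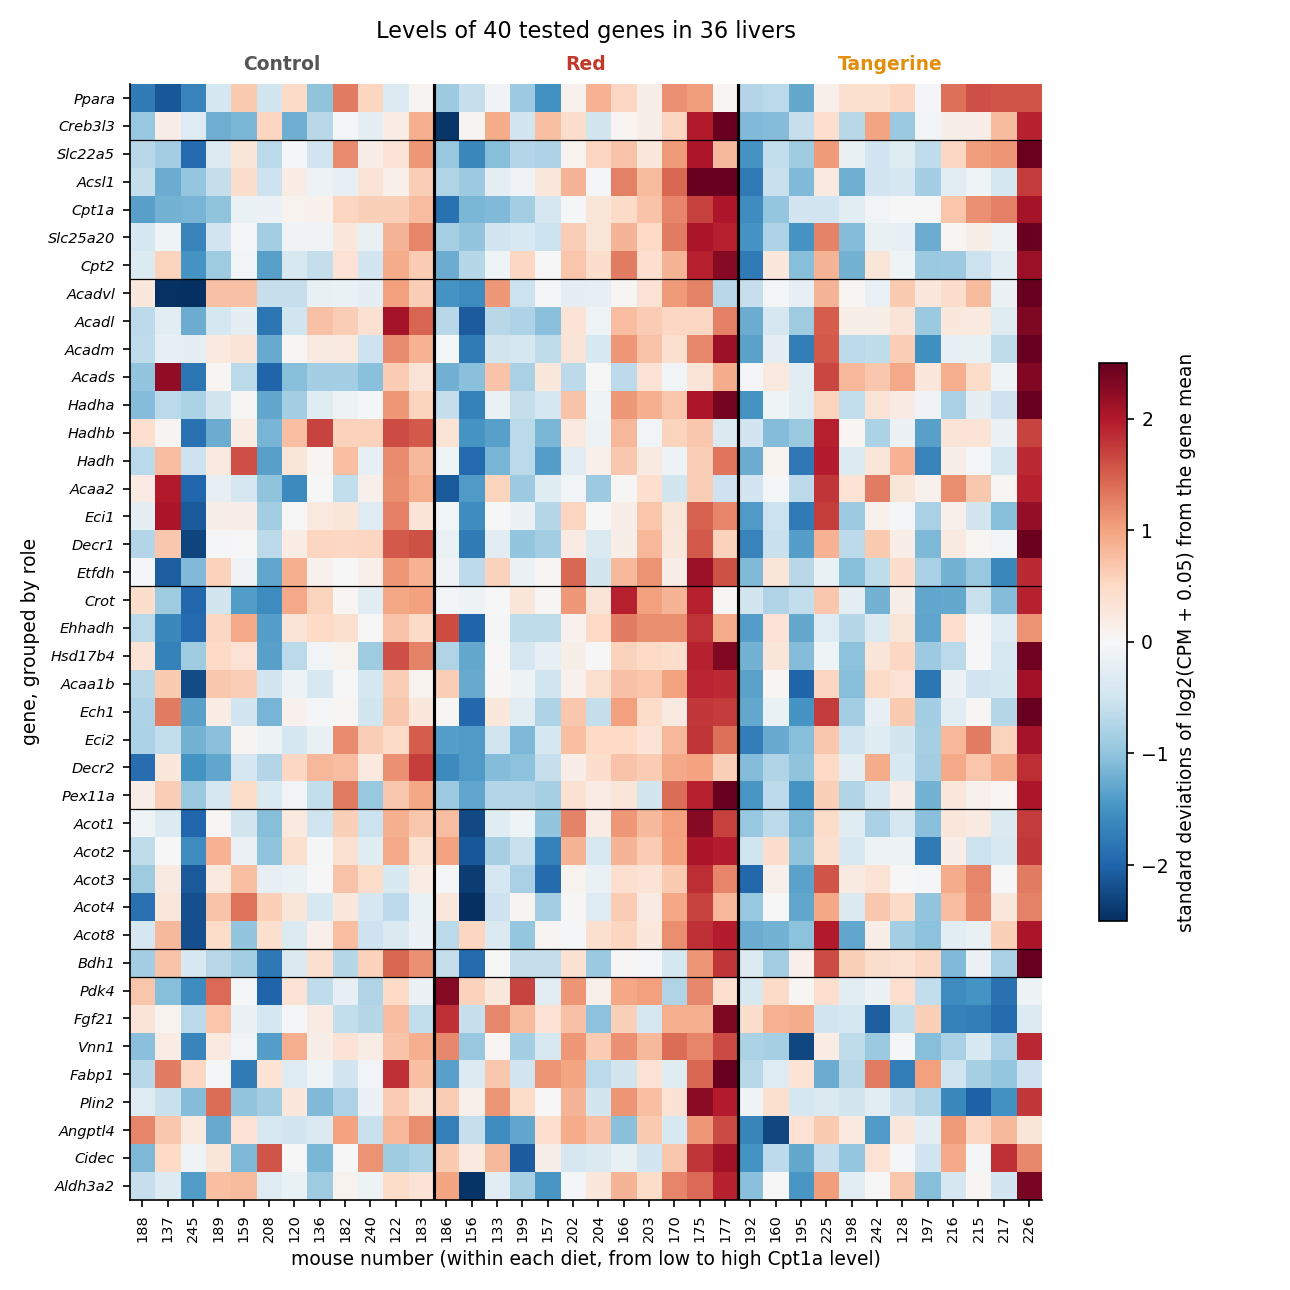
Each of 40 genes (by role) in each of 36 livers, as standard deviations of log2 CPM from the gene's mean, with mice of a diet ordered by Cpt1a. Tangerine 226 lies above its diet's median in all 40 genes, and control 245 and red 156 lie above theirs in 1 and 2.

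With diet means removed, 37 of the 39 other tested members had a positive Pearson r with Cpt1a over the 36 mice (50.1% of all genes), with a median of 0.56 (0.000243 over all genes). Adjusted over all genes, 33 of the 39 were related to Cpt1a by edgeR's quasi-likelihood test with diet in the model, all positively, against 12.3% of all genes. Eci2 had the highest at r = 0.90 (Spearman rho = 0.89, and r = 0.88 without the 2 mice farthest from the median Cpt1a level), and within control, red and tangerine mice r was 0.88, 0.94 and 0.89. Acsl1 (r = 0.86), Slc22a5 (0.86), Decr2 (0.84), Slc25a20 (0.79) and Ppara (0.75) came next, with rho between 0.80 and 0.86 and r between 0.73 and 0.85 without the 2 farthest mice. The permutation p was 1e-05 for each of these 6 genes, the smallest these resamples can give. Within control, red and tangerine mice alone 1, 8 and 2 of the 39 passed the edgeR test, against 0.0853%, 0.633% and 0.0284% of all genes. Pdk4 (r = -0.30, adjusted p = 0.124 by edgeR), Fgf21 (-0.23, 0.540) and Plin2 (0.18, 0.335) did not pass over all mice. Without red 186 and tangerine 216, 32 of the 39 passed, against 12.8% of all genes. These relations share libraries and depth, and the genes are not independent replicates.

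A clock score, the main component of 10 tested clock genes with 84.2% of their variance and signed so that a high score means high Dbp, had its lowest mean in red livers. It was 0.814 ± 2.67 in control (SD, n = 12), -2.38 ± 2.17 in red and 1.57 ± 1.95 in tangerine livers, with ranges that overlapped. Over all 36 mice with diet means removed, Pdk4 was the member most closely related to it, at r = -0.79 (rho = -0.82, permutation p = 1e-05 for each, the smallest these resamples can give). It was -0.77 without the 2 farthest mice, and the adjusted p over all genes was 3.76e-06 by edgeR with diet in the model. Within control, red and tangerine mice r was -0.78, -0.76 and -0.84, with adjusted p of 0.0904, 0.133 and 0.0224 by edgeR within each diet, where 0, 0 and 3 members passed, against 0.249%, 0.605% and 1.59% of all genes. Cpt1a (r = 0.55, adjusted p = 0.0160) and Decr2 (0.50, 0.0462) also passed. These 3 of 40 members stand beside 5.87% of all genes, a share near that of the members. Eci2 (0.49, 0.0526), Creb3l3 (0.47, 0.0671), Fgf21 (-0.45, 0.193) and Plin2 (-0.45, 0.104) did not pass, and within red mice Fgf21 was at r = -0.06 and Plin2 at -0.12. For Cpt1a, Decr2 and these 4 genes the unadjusted permutation p of r lay between 0.00055 and 0.00603. Without red mouse 186 and tangerine mouse 216, Pdk4 (r = -0.78, adjusted p = 1.56e-05 by edgeR) and Cpt1a (0.52, 0.0358) passed and Decr2 did not (0.46, 0.104), against 4.41% of all genes. Time of sampling is not given in the sources used here.

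**Figure D5:**
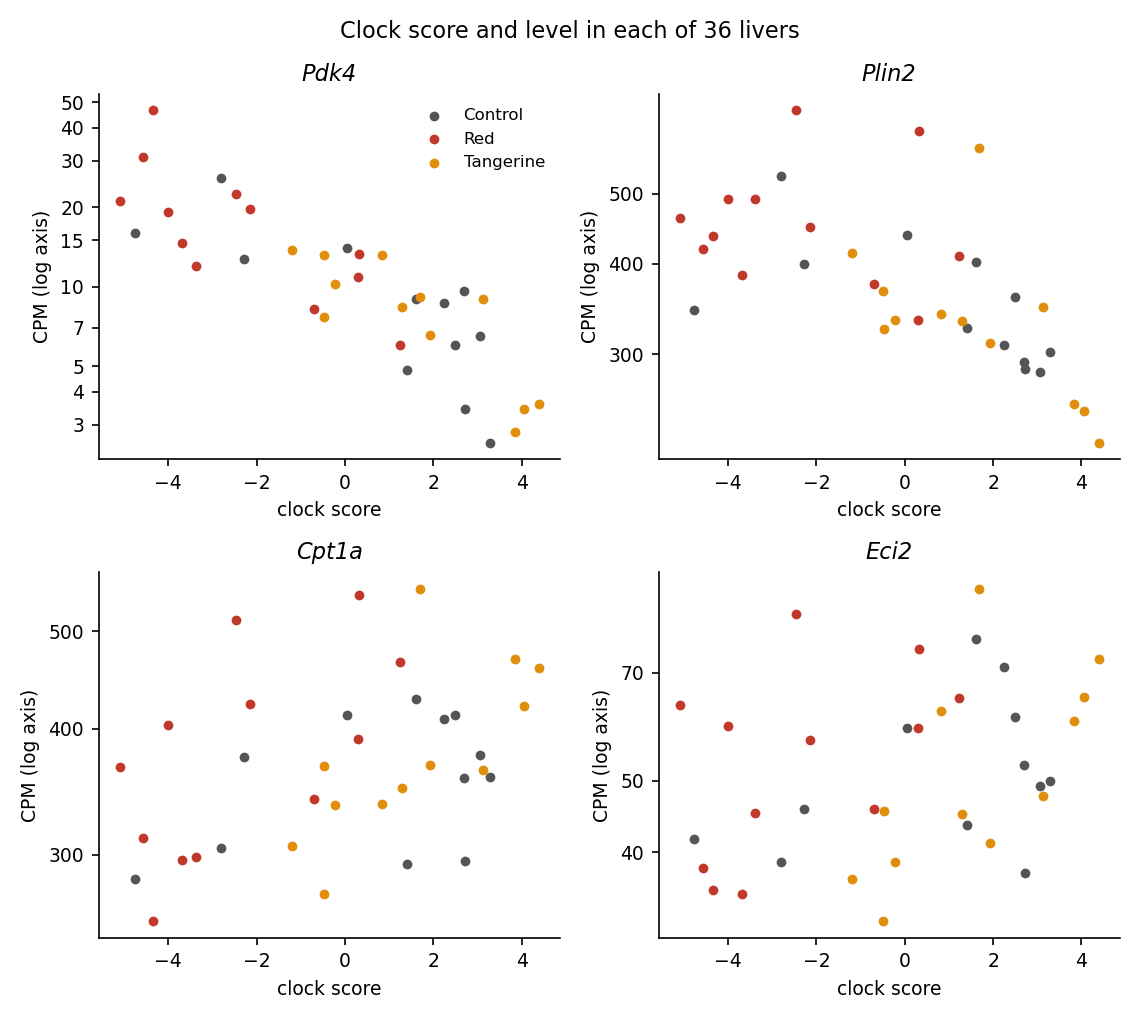
CPM on a log axis against the clock score in each of 36 livers, coloured by diet. Pdk4 falls as the score rises, and r is positive for Cpt1a and Eci2.

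With the clock score as a covariate the difference in Pdk4 between the tomato diets went from -1.16 to 0.00386 (adjusted p = 0.997 by edgeR), and red against control went from 0.92 to 0.03. In tangerine against red the estimates for Plin2, Fgf21 and Crot were -0.21, -0.58 and -0.24 with it, and those of Acsl1 and Vnn1 were -0.49 and -0.87. Cpt1a went from -0.00212 to -0.27 (adjusted p = 0.384 by edgeR), which lies outside the interval given above, Angptl4 from -0.08 to -0.40, Etfdh from -0.18 to -0.10 and Ppara from 0.19 to -0.13. In red against control, Plin2, Fgf21, Crot and Ppara were 0.20, 0.44, 0.20 and 0.38 with it. With that covariate 0 of the 40 members passed the adjusted threshold in tangerine against red, and 0 of all genes tested did. At an unadjusted p under 0.05 the members numbered 7, against 11.4% of all genes. The median over the members was -0.21.

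The threshold lay close to Pdk4 and Plin2. Left out in turn, each of 10 libraries brought 1 to 4 members past it in tangerine against red, by edgeR: tangerine 226 (Plin2 adjusted p = 0.0126, Vnn1 0.0141, Acsl1 0.0229, Crot 0.0404), red 204 (Plin2 0.0317, Pdk4 0.0454, Fgf21 0.0477), tangerine 160 (Plin2 0.0429, Pdk4 0.0430), control 189 (Pdk4 0.0405, Plin2 0.0417), tangerine 195 (Fgf21 0.0489), and for Pdk4 alone red 170 (0.0340), control 208 (0.0471), red 157 (0.0475), control 245 (0.0491) and tangerine 225 (0.0495). Dropping genes under a mean log2 CPM of 1 gave Pdk4 0.0474 and Plin2 0.0488, fitting the tomato diets alone gave Pdk4 0.0436, DESeq2 gave Pdk4 0.0260 and Plin2 0.0259, and voom gave Pdk4 0.0170, Plin2 0.0201 and Acsl1 0.0466. Leaving out 1 library also moved the adjusted p the other way by edgeR, up to 0.122 for Pdk4 and 0.119 for Plin2. It reached 0.187 for Acsl1, 0.188 for Fgf21, 0.234 for Vnn1 and 0.323 for Crot. Over all genes, the refits with 1 library left out called 89 to 301 in tangerine against red.

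Every library held all 8 hepatocyte markers. Their sum was lowest among tangerine livers in mouse 226, at 92430 CPM (at least 101404 in the others). Among red livers it was lowest in mouse 186, at 97730 CPM (at least 101068 in the others). Leaving out tangerine 226 brought Plin2, Vnn1, Acsl1 and Crot past the threshold in tangerine against red, as given above. Red mouse 186 had white adipose markers summing to 7.25 CPM, against at most 0.304 in the other red livers, and T cell markers summing to 157 CPM, against at most 4.48. Tangerine mouse 216 had pancreas markers summing to 11.0 CPM, against at most 0.129 in the other tangerine livers. Sinusoidal endothelial markers summed to 17.7 CPM in control mouse 137 (at least 44.6 in the other controls) and to 22.5 in tangerine mouse 225 (at least 36.7 in the other tangerine livers). Kupffer cell markers were lowest in the same mice of these diets, at 68.5 and 99.2 CPM. Without control 137, 0 members passed in any comparison, and without tangerine 225 only Pdk4 passed, as given above. Without red 186 and tangerine 216 together, 0 members passed the adjusted threshold in any comparison. In that fit Acsl1 was -0.39, Plin2 -0.41 and Fgf21 -0.77 in tangerine against red.

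The wider pathway was read from 100 further genes of fatty acid oxidation and PPARA action, of which 86 were tested. In red against control 0 passed, against 0.149% of all genes. At an unadjusted p under 0.05, 7 were higher and 6 lower (6.67% and 6.63% of all genes). In tangerine against red 1 passed, Pxmp4, a peroxisomal membrane protein, against 1.71% of all genes. At the unadjusted threshold 6 were higher and 12 lower (6.6% and 8.52% of all genes). Pxmp4 ranged from 63.5 to 101 CPM in control (median 81.6), from 81.1 to 137 in red (median 96.8) and from 57.9 to 92.3 in tangerine livers (median 70.0). Of the tangerine livers, 10 lay below every red liver. Tangerine against red was -0.48 (SE 0.0843, adjusted p = 0.00394 by edgeR), red against control 0.35 (SE 0.0842, adjusted p = 0.0591) and tangerine against control -0.13. With the clock score as covariate it was -0.29 (adjusted p = 0.263).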

How the data were processed

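The authors deposited raw read counts per gene for 36 libraries. Per the labels' protocols, RNA was made into libraries with a directional kit. FastQC, Trimmomatic, edgeR and the build GRCm38.p6 are named in the submitters' processing notes, and the aligner, counter, annotation and strand setting are not given in the sources used here. Symbols came from GENCODE M21 by Ensembl identifier (53620 of 53715 matched).

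Genes were filtered by edgeR 4.0.16 (filterByExpr with a minimum count of 10 and a total of 15), scaled by TMM and tested with the robust quasi-likelihood F test over all 36 libraries, with p-values adjusted over 14068 genes within a contrast. Log2 CPM used a prior count of 2. Alternatives used DESeq2 1.42.0 and limma 3.58.1, and relations used permutation tests of 100000 resamples and, chosen after seeing the data, an edgeR test of the covariate adjusted over all genes (for the clock score, all but the clock genes). Other settings were DESeq2 size factors, other low-count filters, the clock score or mouse number as covariate, fewer groups and leaving out libraries. Depth was 21290169 to 33810573 counts per library. P-values set a difference or relation against the spread between mice.

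All members are named, and of the further pathway genes those past the threshold, at most 5 per contrast. The members and lists were chosen with earlier results of these data known. Mouse numbers occur once each, so no mice were paired.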

Additional observations from a re-analysis of the deposited data

Results flagged for a closer look

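Pxmp4 differed between the tomato diets by -0.48 on the log2 scale (tangerine minus red), with a negative value against control in tangerine livers and a positive one in red livers. It was the single gene of the further pathway list past the adjusted threshold, which 1.71% of all genes passed in that comparison. Its difference was -0.29 with the clock score as covariate.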

How the results depend on the processing

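The number of members past the adjusted threshold was 0 under all settings in each comparison with control. In tangerine against red it was 2 by DESeq2, 3 by voom, 2 when genes under a mean log2 CPM of 1 were dropped, 1 with only the groups compared, and 0 to 4 with each library left out, and 0 otherwise. Over all genes, red against control gave 21 genes, but 164 by DESeq2, 1504 by voom, 59 under that stricter filter, 3 with the clock score, 53 without both red 186 and tangerine 216, and 13 to 127 with 1 library left out. Tangerine against control gave 2, but 6 by DESeq2, 1 with the mouse number, and 2 to 4 with 1 library left out. Tangerine against red gave 241, but 391 by DESeq2, 746 by voom, 136 with no filter, 32 with the mouse number, 86 without both libraries, 89 to 301 with 1 left out, and 0 by edgeR with the clock score (1608 at an unadjusted p under 0.05). Both tomato diets against control gave 1, but 12 by DESeq2, 34 by voom, 6 with no filter, 2 without both libraries, and 1 to 7 with 1 left out. Of the further pathway genes, red against control gave 0, but 3 by DESeq2, 9 by voom, 1 under the stricter filter, 2 without both libraries, and 0 to 2 with 1 left out. Tangerine against red gave 1, but 4 by DESeq2, 5 by voom, 2 with no filter, 2 with only the groups compared, 0 with the clock score, and 1 to 2 with 1 left out. Members related to the clock score numbered 7 by permutation adjusted over the 40 members and 2 without both libraries, and adjusted over all genes by edgeR 3 and 2. Members related to Cpt1a numbered 34 by permutation adjusted over the 39.

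Some fold changes changed sign. Cpt1a in tangerine against red was 0.000345 by DESeq2, 0.000356 with its size factors, 0.0258 by voom, 0.00273 with no filter, and -0.0603 to 0.0532 with 1 library left out. Angptl4 there ran from -0.179 to 0.0892 with 1 library left out. The largest value of Cpt1a there was -0.268, with the clock score. With that covariate Pdk4 went from -1.16 to 0.00386 in tangerine against red, and was 0.0354 in tangerine against control. Ppara was -0.132 with that covariate in tangerine against red. Fgf21 was 0.0231 in tangerine against control with the mouse number, and Ppara was -0.0216 in red against control by voom. The cause was not tested. Leaving out libraries other than red 186 and tangerine 216 was chosen after seeing the data. No paired analysis was possible because each mouse number occurs in 1 diet.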
